A study of Mus musculus with 14 samples.

Results

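The lymphoid and inflammatory miRNAs examined were miR-150, miR-155, miR-342, miR-146a, miR-146b, miR-181a and miR-181b. Members were the wells of the quantitative PCR panels whose miRNA name, without species prefix, arm and star, was one of these. Of 392 named wells, 9 qualified, and each was among the 388 miRNAs tested. The files name the assays mmu-miR-150, mmu-miR-146a, mmu-miR-146b and so on, with mmu for the mouse, which is left out below. They hold 8 mature miRNAs, since miR-146b had a mouse assay (miR-146b) and a rat assay (rno-miR-146b). Arms of miR-181a were measured by miR-181a and miR-181a-1*, and miR-342 by miR-342-3p alone. The values came from plasma of 6 wild-type mice, called control, and of 8 mice of a genetically engineered mouse model (GEMM) with osteosarcoma (OS), 1 sample per mouse. The methods describe more GEMM mice with OS on these panels than the 8 here, and how these were chosen is not given. In the model a germline Cre driven by a Col-α1(I) promoter deletes 1 or both floxed Trp53 alleles in osteoblasts, and wild-type littermates (p53+/+;Cre+/- in the methods) served as controls. The labels do not say which OS mice lost 1 allele and which lost both, nor the age of each mouse. Blood was taken into EDTA by cardiac puncture, from OS mice once a tumor had developed.

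These miRNAs are known from cells of the immune system. miR-150 is abundant in mature B and T lymphocytes, where it represses Myb. miR-155 comes from a transcript that is induced when lymphocytes and macrophages are activated. miR-146a is induced by NF-κB and targets Traf6 and Irak1, which places it in a negative feedback on inflammatory signaling. miR-146b is close to it in sequence and comes from a separate gene. miR-181a and miR-181b are high in thymocytes, where miR-181a tunes the sensitivity of the T-cell receptor. miR-342-3p is expressed in blood cells and is transcribed with its host gene Evl. Plasma holds RNA from many cell types, so fewer cells of a type and less RNA released per cell cannot be told apart.

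By name, 7 of the 9 assays matched a mature miRNA in RefSeq (GRCm38.p6). The 5 sequences below belong to miRNAs whose group differences or co-variation are described further on. No relation of sequence to level was tested. They are written 5′ to 3′ in lower case, and capitals mark the seed, bases 2 to 8, which pairs with targets.
miR-146a-5p: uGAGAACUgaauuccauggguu
miR-146b-5p: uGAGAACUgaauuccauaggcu
miR-181a-5p: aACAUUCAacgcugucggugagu
miR-181b-5p: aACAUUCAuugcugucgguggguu
miR-342-3p: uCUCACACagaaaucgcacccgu
miR-146a-5p and miR-146b-5p have the same seed and are identical at 20 of 22 positions. Counted from 1 at the 5′ end, with the base of miR-146a-5p first, they differ by G18A and U21C. miR-181a-5p and miR-181b-5p also share a seed and are identical at 20 of the 23 positions they have in common, with A9U, C10U and A21G between them. The seed of miR-342-3p is its own among these. Mir146, the gene of miR-146a, lies at chr11:43374435-43374456 on the minus strand, and Mir146b on the plus strand at chr19:46342790-46342811, where it overlaps the long noncoding RNA gene Gm36493. Mir181a-1 and Mir181b-1 sit 182 bases apart on chromosome 1 (chr1:137966468-137966490 and chr1:137966650-137966673), counted between the starts of the mature sequences. Mir181a-2 and Mir181b-2 sit 1104 bases apart on chromosome 2 (chr2:38852741-38852763 and chr2:38853845-38853868), within the span of Nr6a1. Both pairs are on the plus strand. On the plus strand too, the annotation places Mir342 (chr12:108658680-108658702) within Evl and Mir155 (chr16:84714143-84714165) within Mir155hg. All of these coordinates are those of the mature sequence.

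A value is a quantification cycle (Cq), the cycle at which a well crosses a set signal. Each cycle stands for a doubling, and a lower Cq for a more abundant miRNA. A normalized level is the mean Cq of all retained miRNAs of a mouse minus the Cq of the miRNA, on a log2 scale on which a higher value is more abundant. A Cq above 37 was taken as background. At this limit, 8 of the 9 assays were measured in each of the 14 mice, and miR-181a-1* in 5 of 6 control mice and 7 of 8 OS mice (Fisher's exact test, two-sided, p = 1.00). Differences between groups were called at an adjusted p under 0.05 by limma, fitted over the 388 miRNAs.

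Plasma as a source was checked by its marker miRNAs. The red blood cell, epithelial, liver and myeloid lists had an assay for each of their 4, 4, 2 and 2 names, and the platelet list for 3 of 4. Of the 4 epithelial assays, 3 were measured in every mouse, and a missing value added nothing to a sum. The haemolysis marker is the Cq of miR-23a minus that of miR-451, a red blood cell miRNA, and rises as red blood cells break. It ran from 4.11 to 7.21 cycles in control mice and from 1.05 to 6.85 in OS mice (difference of the means -1.58, exact permutation test, two-sided, p = 0.117). The summed level of the 4 red blood cell assays ran from 11.97 to 14.01 in controls and from 9.64 to 12.97 in OS on the log2 scale (exact permutation p = 0.0463). That of the 4 myeloid and pan-blood assays (miR-142 and miR-223) ran from 8.01 to 9.47 in controls and from 7.47 to 7.95 in OS, with no overlap (exact permutation p = 0.000333, the smallest that 6 mice against 8 allow). The platelet list, at 7.29 to 8.33 and 7.07 to 8.12, overlapped almost whole (exact permutation p = 0.507). The epithelial list (miR-205, miR-203, miR-200a and miR-141) shifted the most, from 5.26 to 6.64 in controls and from 1.67 to 3.97 in OS, with no overlap (difference of the means -3.24, exact permutation p = 0.000333). The liver list (miR-122 and miR-192) ran from 7.82 to 10.6 in controls and from 8.54 to 12.1 in OS (difference 0.99, exact permutation p = 0.123). The part of these other cell types in the levels below was not tested. The lymphocyte list, made of miR-150, miR-155 and miR-181a, had a median of 5.76 in controls and 5.81 in OS (exact permutation p = 0.811). All of its miRNAs are members, and the abundant miR-150 weighs most in the sum. It is therefore no check apart from the levels below. Control replicate 13 had the lowest mean Cq over the retained miRNAs (30.6, against 31.2 to 32.9 in the other mice). Its haemolysis marker was also the highest, at 7.21 cycles, close to the 7.03 of control replicate 3.

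miR-150 was the most abundant of these assays by Cq. Its mean normalized level over the 14 mice was 5.33, at rank 35 of 388. miR-342-3p followed at 3.90, miR-181a at 2.45, miR-146a at 1.03 and rno-miR-146b at 0.020. miR-181b (-2.14), miR-155 (-2.39), miR-146b (-2.47) and miR-181a-1* (-2.83) were the lowest, at ranks 248 to 286. miR-150 was above miR-342-3p in 13 of 14 mice, by 1.43 ± 1.22 (SD) on the log2 scale, and miR-342-3p above miR-181a in 13 of 14 by 1.45 ± 1.46. miR-181b and miR-155, miR-155 and miR-146b, and miR-146b and miR-181a-1* differed from each other by less than their spread, with means of 0.25 ± 1.99, 0.086 ± 1.37 and 0.45 ± 1.02. The efficiency of each assay is not given, so this is an order of signals and may not be one of molecules.

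**Figure D1:**
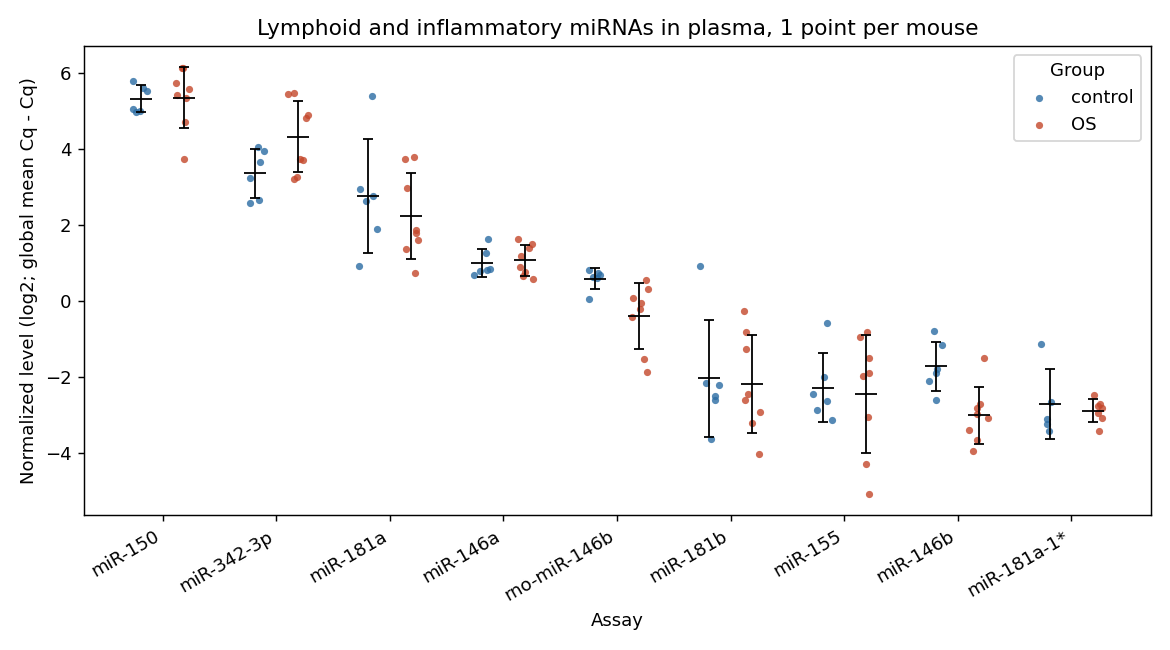
Normalized log2 level (vertical axis, global mean Cq minus Cq) of the 9 assays (horizontal axis, in order of their mean level) in plasma of 6 control mice and 8 OS mice. Points are mice and black bars the mean ± SD. miR-150 is the highest in both groups, and 7 of 8 OS mice lie below every control mouse for miR-146b.

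miR-146b was the only one of the 9 assays called between the groups, and it was lower in OS mice. Its normalized level had a lowest value of -2.62, a median of -1.84 and a highest of -0.80 in control mice, against -3.95, -3.04 and -1.50 in OS mice. Of the 8 OS mice, 7 lay below every control, and OS replicate 15 lay within the control range. The means were -1.73 ± 0.65 (SD, n = 6) and -3.02 ± 0.75 (SD, n = 8), a 2.45-fold fall (log2 difference -1.29 ± 0.40, standard error; adjusted p = 0.0407 in limma, and p = 0.00799 in a two-sided exact permutation test). Over all 388 miRNAs 12.6% were called, 6.44% as lower and 6.19% as higher, so 1 of 9 is near the background. At an unadjusted limma p under 0.05 there were 3 of the 9 assays (miR-146b, rno-miR-146b and miR-342-3p), against 30.7% of all miRNAs. No assay separated the groups without overlap, which 1.03% of all miRNAs did with OS lower and 1.8% with OS higher. The call was lost without any 1 of 11 of the 14 mice, with a limma adjusted p from 0.0510 to 0.112 and a log2 difference from -1.36 to -1.11 in those 11 fits. It was kept without control replicate 1, OS replicate 15 or OS replicate 17. It was also lost when scaled to 3 reference miRNAs (-1.35, limma adjusted p = 0.0714) or to the median (-1.15, 0.0565), unscaled (-1.73, 0.0762), with each panel on its own mean (-1.05, 0.0781), at a Cq limit of 35 (-1.01, 0.170) and by the methods' t-test (adjusted p = 0.0666). The limit of 35 removed the dimmest values of miR-146b and left it measured in 5 of 6 control and 4 of 8 OS mice. With the haemolysis marker as a covariate the difference was -0.92 (limma adjusted p = 0.240), and without the 2 control mice with a marker over 7 it was -1.21 (0.163). The assay is dim, with Cq values from 31.8 to 36.5.

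The rat assay of miR-146b, a separate well, gave a difference of the same sign that did not pass. Its level ran from 0.030 to 0.82 in control mice with a median of 0.66, and from -1.88 to 0.55 in OS mice with a median of -0.14. Each of the 8 OS mice was below the control median and 5 of them were below every control. The log2 difference was -0.98 with a 95% interval from -1.80 to -0.16 (standard error 0.39; adjusted p = 0.106 in limma, and exact permutation p = 0.0143). The lowest values were those of OS replicates 10 and 12, at -1.54 and -1.88. The rat assay read higher than the mouse assay by 2.49 on the log2 scale, and the levels of the assays had a Pearson r of 0.62 over the 14 mice, below the median of 0.80 over 28 miRNAs with a mouse and a rat assay. With group means subtracted it was 0.35 (permutation p = 0.272).

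miR-146a, which shares the seed of miR-146b, had means of 0.99 ± 0.37 (SD, n = 6) in control and 1.07 ± 0.41 (SD, n = 8) in OS mice. It ran from 0.67 to 1.62 in control mice with a median of 0.81 and from 0.57 to 1.63 in OS mice with a median of 1.04. The groups overlapped over almost their whole range. The log2 difference was 0.077 with a 95% interval from -0.56 to 0.71 (limma adjusted p = 0.903; exact permutation p = 0.727). The sign turned with Cq values left unscaled (-0.36), where it did not pass either.

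Levels of miR-146a and miR-146b can be set against each other within a mouse, where no scaling between mice enters. The log2 ratio of miR-146a to miR-146b, a difference of Cq values, was 2.72 ± 0.94 (SD, n = 6) in control mice, from 1.47 to 3.87. In OS mice it was 4.09 ± 0.65 (SD, n = 8), from 3.13 to 4.90. Of the OS mice, 5 lay above every control, and the other 3 were above 4 of the 6 controls. The difference was 1.37, or 2.58-fold (exact permutation p = 0.00833), and did not pass when adjusted by Benjamini-Hochberg over the 9 ratios computed (exact permutation test, adjusted p = 0.0749). With the rat assay of miR-146b the ratio was 0.41 ± 0.45 (SD, n = 6) and 1.47 ± 0.95 (SD, n = 8), and the difference 1.06 (exact permutation p = 0.0250, adjusted p = 0.0909). The ratio to the mouse assay passed without control replicate 1 (1.60) or 2 (1.57) or OS replicate 18 (1.43), with adjusted p of 0.0350, 0.0490 and 0.0498 in the exact test, and that to the rat assay without OS replicate 18 (1.23, adjusted p = 0.0498).

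**Figure D2:**
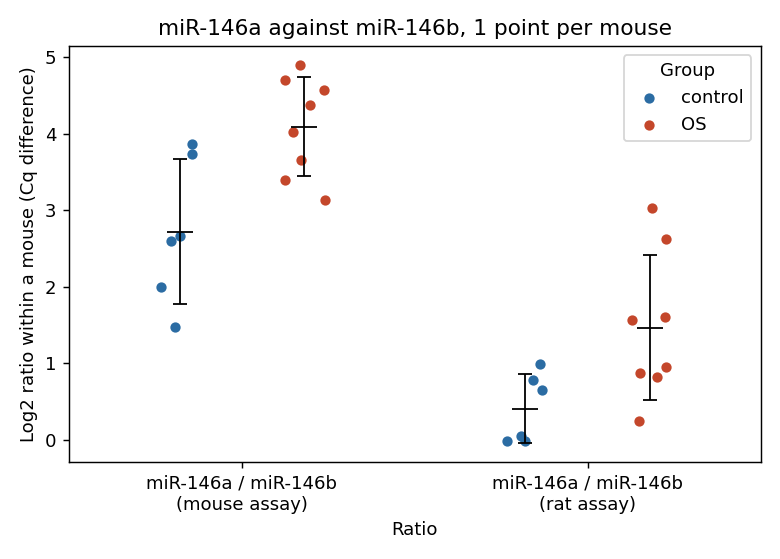
Log2 ratio of miR-146a to miR-146b within each mouse (vertical axis, difference of Cq values), with the mouse assay of miR-146b on the left and the rat assay on the right of the horizontal axis. Points are mice and bars the mean ± SD of 6 control and 8 OS mice. The ratio to the mouse assay lies between 1.47 and 3.87 in controls and between 3.13 and 4.90 in OS mice.

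miR-150 had close means in the groups, 5.32 ± 0.36 (SD, n = 6) in control and 5.34 ± 0.80 (SD, n = 8) in OS mice. Its level had a lowest value of 4.97, a median of 5.29 and a highest of 5.79 in control mice, against 3.73, 5.50 and 6.14 in OS mice. OS replicates 10 and 17 lay below every control, at 3.73 and 4.69, and OS replicates 16 and 18 above every control, both at about 6.13. The log2 difference was 0.024 with a 95% interval from -0.77 to 0.82 (limma adjusted p = 0.980; exact permutation p = 0.952), and its sign turned when scaled to 3 reference miRNAs (-0.031) or left unscaled (-0.41). The difference between the SDs was not tested.

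miR-155 was dim and spread widely in both groups. Its level ran from -3.15 to -0.59 in control mice with a median of -2.55, and from -5.08 to -0.83 in OS mice with a median of -1.95. OS replicates 10 and 17, the lowest for miR-150, were also the lowest here, at -5.08 and -4.31. The log2 difference was -0.16 with a 95% interval from -1.50 to 1.17 (limma adjusted p = 0.903; exact permutation p = 0.823), and its sign turned with each panel on its own mean (0.081).

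miR-342-3p was higher in 4 of 8 OS mice than in any control, without passing the test. Its level ran from 2.57 to 4.04 in control mice with a median of 3.44 and from 3.21 to 5.48 in OS mice with a median of 4.27. OS replicates 10, 11, 12 and 16 were at 5.44, 4.90, 5.48 and 4.80, and the other 4 OS mice lay between 3.21 and 3.74, within the control range. The log2 difference was 0.97, a 1.96-fold higher level, with a 95% interval from 0.043 to 1.89 (standard error 0.44; adjusted p = 0.146 in limma, and exact permutation p = 0.0523). Without 1 mouse at a time it stayed between 0.80 and 1.13, with no call in 14 limma fits. With the haemolysis marker as a covariate it was 0.32 (limma adjusted p = 0.659). The name of this well was not checked independently. It comes from a row of a deposited table whose columns of statistics are out of step with each other and, in a stretch that holds this row, appear out of step with the names, and no second assay of miR-342-3p was there to check it.

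miR-181a and miR-181b had broad ranges that overlapped between the groups. miR-181a ran from 0.90 to 5.40 in control mice with a median of 2.70, and from 0.72 to 3.78 in OS mice with a median of 1.82. The log2 difference was -0.53 with a 95% interval from -1.84 to 0.77 (limma adjusted p = 0.592; exact permutation p = 0.469). Without control replicate 13, whose level of 5.40 was the highest of the 14 mice, it was -0.013, the upper end of the range without 1 mouse. miR-181b ran from -3.65 to 0.90 in control mice with a median of -2.37, and from -4.05 to -0.27 in OS mice with a median of -2.54. Control replicate 13 was again the highest, and the next control was at -2.17. The log2 difference of miR-181b was -0.16 with a 95% interval from -1.56 to 1.23 (limma adjusted p = 0.905; exact permutation p = 0.837), and it was 0.42 without control replicate 13. The passenger strand miR-181a-1*, made from Mir181a-1 alone, had a median of -3.11 in 5 control mice and -2.82 in 7 OS mice (log2 difference -0.17, limma adjusted p = 0.810; exact permutation p = 0.769, with 1 control and 1 OS mouse missing). Its highest value, -1.15, was also that of control replicate 13.

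**Figure D3:**
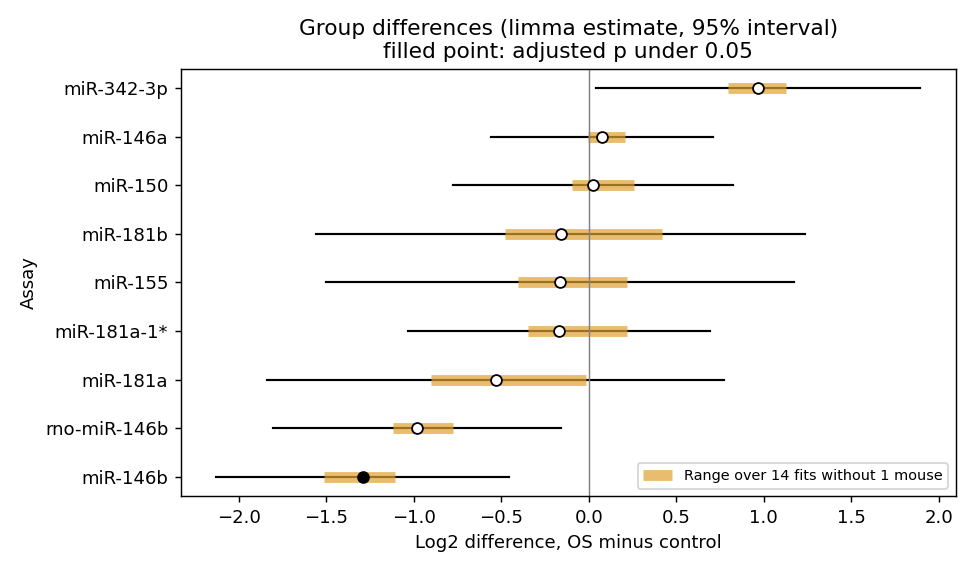
Log2 differences of the 9 assays (vertical axis), OS minus control (horizontal axis), by limma. Points are the estimates, thin lines their 95% intervals and wide bars the range over 14 fits that each left out 1 mouse; a filled point has an adjusted p under 0.05. miR-146b is the only filled point, at -1.29, and miR-342-3p has the highest estimate, at 0.97.

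The 9 assays had a median log2 difference of -0.16, against -0.0027 over all 388 miRNAs, with 6 of 9 below 0, against 195 of 388. For the further lists, the shares over all miRNAs were again 6.44% called lower and 6.19% called higher, and a single call among 17 or 13 assays is about that background. Among them, pan-blood and myeloid miRNAs had 1 of 4 assays lower and none higher, with a median of -0.84. The lower one was miR-142-3p (log2 difference -3.57, limma adjusted p = 0.00326), and miR-142-5p (-1.18), miR-223 (-0.49) and rno-miR-223 (-0.24) did not pass. Of 17 assays of other lymphocyte miRNAs, 1 was lower and none higher, with a median of -0.31. It was miR-29a* (-1.17, limma adjusted p = 0.0327), followed by miR-26a (-1.07), miR-20a (-0.79) and miR-18a* (0.84), which did not pass. Of 13 assays of other inflammation-induced miRNAs, 1 was higher and none lower, with a median of 0.19. This was miR-212-3p, of the CREB-responsive miR-212 and miR-132 pair, which rose 3.03-fold (log2 difference 1.60, limma adjusted p = 0.0407). miR-132 (0.79), miR-21* (-0.91, in 6 control and 6 OS mice) and miR-21 (-0.75) did not pass.

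Of the ratios of miR-150 to other members, that to miR-146b had the lowest p. The log2 ratio of miR-150 to miR-146b was 7.05 ± 0.93 (SD, n = 6) in control mice and 8.37 ± 0.97 (SD, n = 8) in OS mice, a difference of 1.32 (exact permutation p = 0.0303, adjusted p = 0.0909 over the 9 ratios). Differences were -0.94 for the ratio of miR-150 to miR-342-3p, 0.56 to miR-181a, 0.19 to miR-155 and -0.053 to miR-146a, with exact permutation p from 0.158 to 0.916. The log2 ratio of miR-181a to miR-181b was 4.80 ± 0.53 (SD, n = 6) and 4.43 ± 0.38 (SD, n = 8), which differed by -0.37 (exact permutation p = 0.154). None of the 9 ratios passed after adjustment, and 3 had an unadjusted exact permutation p under 0.05.

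Co-variation was read from the normalized levels of the 8 assays measured in every mouse, with each group mean subtracted and p-values from 100000 permutations within the groups. Of the 28 pairs, 15 had a positive and 13 a negative Pearson r, and the median was 0.018. Across the 276 miRNAs without a missing value, 37950 pairs had a median of 0.016 and 51.5% were positive, so the median of these pairs was near that of all. All levels of a mouse share 1 global mean. The pair called at an adjusted p under 0.05 was miR-181a and miR-181b.

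miR-181a and miR-181b rose and fell together from mouse to mouse. Pearson r was 0.95 over the 14 mice (permutation p = 7e-05, adjusted over 28 pairs p = 0.00196) and Spearman rho 0.76 (permutation p = 0.00396, adjusted p = 0.111). Within the control mice r was 0.94 (exact permutation p = 0.0306) and within the OS mice 0.96 (exact permutation p = 0.000918). Without control replicate 13 and OS replicate 19, the mice farthest from the median of miR-181a, r was 0.88. OS replicates 10, 11 and 12 had the highest levels of both among OS mice, at 2.98 to 3.78 for miR-181a and at -1.26 to -0.27 for miR-181b. Over the 12 mice in which miR-181a-1* was measured, its r was 0.63 with miR-181a (permutation p = 0.0916) and 0.79 with miR-181b (permutation p = 0.0160, adjusted over 4 pairs p = 0.0638). Spearman rho was 0.33 (permutation p = 0.306) and 0.76 (permutation p = 0.0111, adjusted p = 0.0444). Without the 2 mice farthest from the median of miR-181a-1*, Pearson r fell to 0.14 with miR-181a and to 0.45 with miR-181b. Both r thus depend at least in part on those mice.

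**Figure D4:**
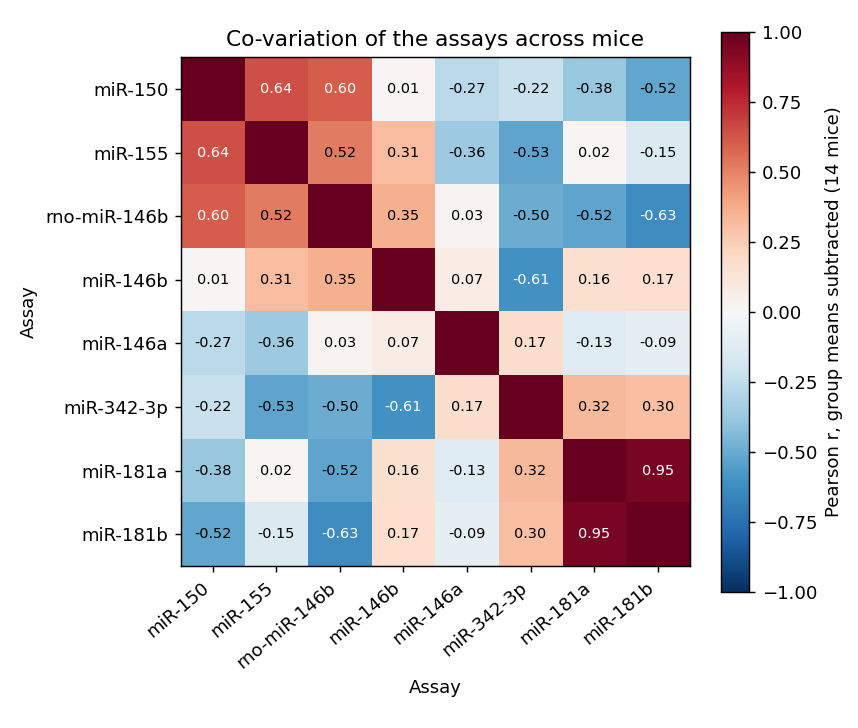
Pearson r between the normalized log2 levels of 8 assays (both axes) over 14 mice, with group means subtracted. Red cells are positive and blue cells negative, on a scale from -1 to 1. miR-181a and miR-181b have the highest r (0.95) and rno-miR-146b and miR-181b the lowest (-0.63).

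Other pairs did not pass the adjustment. miR-150 and miR-155 had an r of 0.64 (permutation p = 0.0324, adjusted p = 0.181; Spearman rho 0.41, permutation p = 0.174), which was -0.45 within control mice (exact permutation p = 0.422) and 0.85 within OS mice (exact permutation p = 0.00761). Without OS replicates 10 and 17 it was -0.15, so it rests on those mice. rno-miR-146b and miR-181b had the lowest r, -0.63 (permutation p = 0.00820, adjusted p = 0.115; Spearman rho -0.62, permutation p = 0.0245), and -0.57 without the 2 farthest mice. miR-342-3p and miR-146b had an r of -0.61 (permutation p = 0.0256, adjusted p = 0.181; Spearman rho -0.58, permutation p = 0.0428), and -0.47 without the 2 farthest. miR-146a and miR-146b had an r of 0.073 (permutation p = 0.820; Spearman rho -0.051, permutation p = 0.872), with -0.68 within control and 0.50 within OS mice (exact permutation p = 0.153 and 0.211). miR-155 had an r of 0.92 with miR-181a within control mice and -0.48 within OS mice (exact permutation p = 0.0181 and 0.230). Control replicate 13 was the highest of the controls for both. On Cq values left unscaled, 9 pairs passed.

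The level of miR-342-3p ran against the haemolysis marker in both groups. This relation was computed after the data were seen, as 1 of 8 between an assay and the marker. With group means subtracted, Pearson r was -0.87 (permutation p = 0.000340, adjusted over the 8 p = 0.00272) and Spearman rho -0.89 (permutation p = 0.000220, adjusted p = 0.00176). Within control mice r was -0.89 (exact permutation p = 0.0458) and within OS mice -0.86 (exact permutation p = 0.00486). Without the 2 mice farthest from the median of the marker it was -0.83. Among the 276 miRNAs measured in every mouse, 2, miR-342-3p included, had an r this low or lower, and the median was 0.057. The marker was lowest in OS replicates 10, 12 and 11 (1.05, 2.59 and 2.97 cycles), which had the 3 highest levels of miR-342-3p. The other 7 relations with the marker did not pass, with r from -0.25 for miR-181b to 0.65 for miR-155 (permutation p = 0.0228, adjusted p = 0.0912). Without the 2 farthest mice r of miR-181b was -0.40 and that of miR-155 was 0.39. Within OS mice alone r was 0.75 for miR-150, 0.74 for miR-155, 0.80 for rno-miR-146b, -0.72 for miR-181a and -0.81 for miR-181b (exact permutation p from 0.0154 to 0.0485, not adjusted). Within control mice r of the same 5 was -0.52, 0.39, -0.49, 0.47 and 0.62 (exact permutation p from 0.118 to 0.517), and the difference between the groups was not tested. The part of haemolysis in these levels was not tested.

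**Figure D5:**
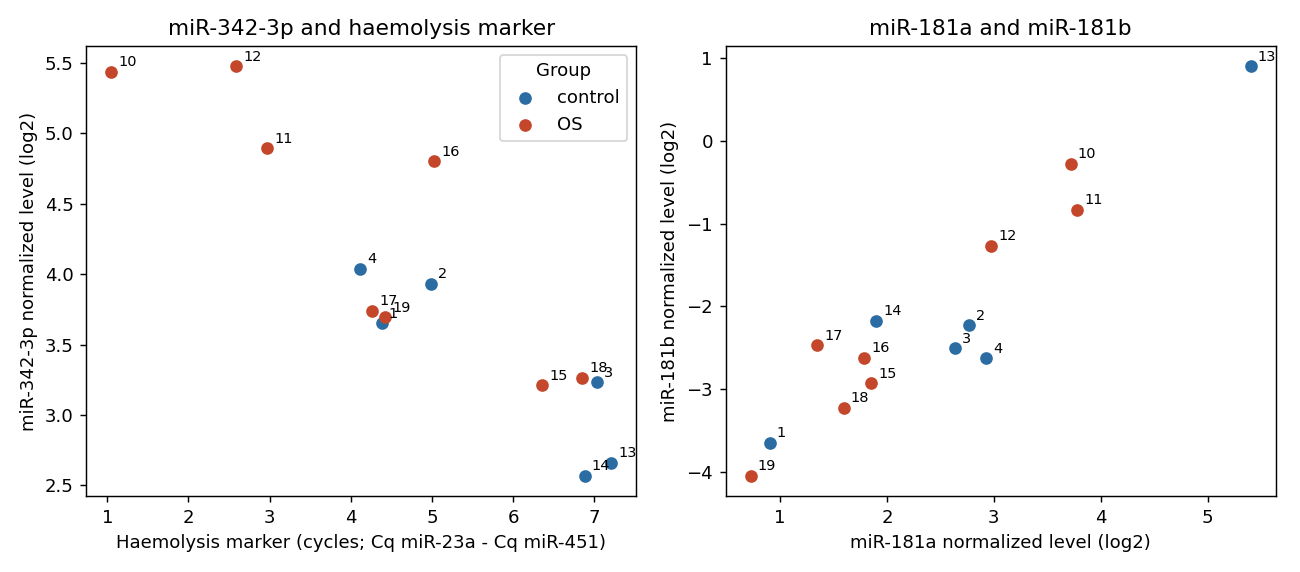
Left, normalized log2 level of miR-342-3p (vertical axis) against the haemolysis marker in cycles (horizontal axis). Right, normalized log2 levels of miR-181b (vertical axis) against miR-181a (horizontal axis). Each point is 1 of 14 mice, labelled with its replicate number and colored by group. miR-342-3p falls from 5.44 at a marker of 1.05 (OS replicate 10) to 2.66 at 7.21 (control replicate 13), and miR-181b rises with miR-181a.

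The miRNAs with the pattern most like each of miR-150, miR-146a and miR-146b were sought among 268 others measured in every mouse, by Pearson r over the 14 mice with group means subtracted. For miR-150 they were miR-301b (0.72), miR-872 (0.66) and miR-491 (0.66), against a median of -0.035. For miR-146a they were miR-34a (0.68), miR-33* (0.60) and miR-187 (0.58), against a median of -0.027. For miR-146b they were miR-107 (0.79), let-7a (0.78) and miR-185 (0.76), against a median of 0.14. Among these 9, miR-107 was called lower in OS mice (log2 difference -1.25, limma adjusted p = 0.0443), as was miR-146b, and the other 8 were not called. Picked as the highest of 268, these r lie above the median by choice, and whether they exceed chance was not tested.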

How the data were processed

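The authors deposited Cq values, on a log2 scale, for 768 wells per mouse from Exiqon mouse panels I and II, run on a Roche LC480. They were not normalized between mice, and the sources used here do not state whether calibration between plates and removal of outlying wells had been applied. A further deposited table holds the authors' fold changes and p-values, which were not used. Its well positions gave the names of 392 wells, 389 miRNAs. No counts of molecules stand behind a Cq, so the spread among the mice of a group sets the precision. Names were checked by the co-variation of mouse and rat assays of the same miRNA, over 28 pairs. In part of the table the statistics appear out of step with the names. miR-342-3p lies in that part, with 1 well and no second assay, so its name was not checked. Of the members, only miR-146b had a mouse and a rat assay (Pearson r 0.62). The names of the other members were not checked in this way either.

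A Cq above 37 or blank was set to missing, and only the 388 miRNAs with under 75% of their values missing were kept. Each mouse was centred on the mean of these, with a missing value replaced for this mean alone by the group mean or by Cq 38. Missing values, 5.84% of the total, stayed missing in the tests. Wells of the same name were averaged. Mouse groups were compared with limma 3.58.1 in R 4.3.3 (lmFit, eBayes, two-sided, no covariate) with Benjamini-Hochberg adjustment over the 388 miRNAs. Single values and within-mouse ratios went through every split of the mice in an exact permutation test, detection by Fisher's exact test, and correlations by 100000 permutations within the groups or by all pairings within a group. Python 3.11.15, pandas 2.3.3, scipy 1.17.1 and matplotlib 3.10.9 were used. Summed marker levels are the log2 of the summed linear levels, without starred arms.

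The members and lists were chosen with earlier results of these data known. Named are all members, miR-23a and miR-451, the 3 nearest patterns of miR-150, miR-146a and miR-146b, and up to 4 per further list by the smallest p. Alternatives changed the scaling, the Cq limit, the handling of missing values and the filter, and added the methods' t-test, the haemolysis marker as a covariate, leaving out each mouse, and leaving out the 2 control mice with a marker over 7. The correlations with the haemolysis marker and those of miR-181a-1* were added after the data were seen. The code was tested on simulated data. The simulation covered 388 miRNAs for OS versus control and was repeated 20 times. In it, 28.9%, 80.8% and 96.2% of log2 changes of 1, 2 and 3 were called, and 0.584% of the unchanged. These rates are those of the simulated data. Whether they hold for the mice was not tested. Among the mice, SDs could differ between groups, as for miR-150 (0.36 in control and 0.80 in OS mice). The number of miRNAs called ran from 20 to 73 without single mice.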

Additional observations from a re-analysis of the deposited data

Results flagged for a closer look

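In control mice, replicate 13 lay apart from the others for rno-miR-146b, with a normalized log2 level of 0.030 below the next value of 0.60. For miR-181b the same mouse lay apart at the upper end, at 0.90 against -2.17 in the next control. These were 2 of 36 sets of values examined, over 9 levels and 9 ratios in each group, and chance would give such a gap in about 1 of 20 sets.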

How the results depend on the processing

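Of the 9 members 1, miR-146b, was called. The number was 0 when scaled to 3 reference miRNAs (miR-191, with miR-103 and also miR-423-3p) or to the median, unscaled, with each panel on its own mean, at a Cq limit of 35, with the haemolysis marker as a covariate, by the methods' t-test and without the mice with a marker over 7, and 0 to 1 without single mice. It was 1 in the other 6 settings, and miR-146b was lower in OS mice in each setting run. The log2 median of all miRNAs was -0.0027, and shifted to -0.45 unscaled and to 0.14 when scaled to the median. All miRNAs called, 49 in the main analysis, numbered 33 when scaled to the 3 reference miRNAs, 21 unscaled, 29 at a Cq limit of 35, 24 by the methods' t-test, 17 with the covariate, 20 without the mice with a marker over 7, and 20 to 73 without single mice. No other member passed in any setting. No ratio passed in the main analysis and 0 to 2 without single mice. Detection did not pass Fisher's exact test for any member at any Cq limit run. The pairs that co-varied numbered 1, but 0 by Spearman, 3 when scaled to the reference miRNAs, 5 to the median, 9 unscaled, and 1 to 2 without single mice. Pearson r of miR-181a and miR-181b stayed between 0.91 and 0.96 without single mice, and that of miR-342-3p with the haemolysis marker between -0.92 and -0.84, and it was -0.62 unscaled.

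Log2 differences that changed sign, none of which passed, were those of miR-150 (-0.031 with the reference miRNAs, -0.41 unscaled, -0.026 at a limit of 35, -0.0027 without the mice over 7), miR-146a (-0.36 unscaled, -0.030 without the mice over 7) and miR-155 (0.081 by panel, 0.59 at a limit of 35, 0.62 with the covariate, 0.10 without the mice over 7). The others were miR-181a (0.089 without the mice over 7), miR-181a-1* (0.049 with the reference miRNAs, 0.033 with the median, 0.0038 with the covariate, 0.18 without the mice over 7) and miR-181b (0.084 by panel, 0.17 at a limit of 35, 0.45 without the mice over 7). The limit of 35 removed the dimmest values of miR-155 and miR-181b, and left each measured in 5 of 6 control and 5 of 8 OS mice. Ratios of miR-150 turned to -0.15 at a limit of 35 and -0.10 without the mice over 7 for miR-155, and, without those mice, to 0.028 for miR-146a and -0.091 for miR-181a. Without single mice the ranges were -0.095 to 0.26 (miR-150), -0.0032 to 0.21 (miR-146a), -0.40 to 0.22 (miR-155), -0.35 to 0.22 (miR-181a-1*), -0.48 to 0.42 (miR-181b), and for ratios of miR-150 -0.25 to 0.24 (miR-146a), -0.21 to 0.45 (miR-155) and -0.027 to 1.02 (miR-181a). The cause was not tested. Cq values of miR-146b, miR-155, miR-181b and miR-181a-1* reach the background limit or come near it, which limits their precision. No paired analysis was possible because the labels do not say which mice were littermates.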
